A study of Mus musculus with 24 samples.

Results

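The cells described here are the Lin-CD29+CD24+ cells of mouse mammary tumours, set against the same sorted population of normal mammary glands. The arrays were chosen by their titles, which name the tissue and the sorted population, and they are 8 of the 24 arrays of the series. There were 5 tumour arrays, from mammary adenocarcinomas A to E of C57BL6/J mice with the Apc+/1572T genotype, and 3 normal arrays, from gland pools F to H of C57BL6/J Apc+/+ mice. The 1572T allele encodes a shortened Apc protein, and the control mice do not carry it. Each pool combines glands, so the spread between pools is not a spread between single mice, and neither the age of the mice nor the number of animals in a pool is given in the labels used here. All cells came from dissociated tissue stained and sorted by flow cytometry, an equal number of cells per population, and their RNA was amplified in 2 rounds before biotin labelling. Lin- stands for cells without lineage markers. The series also holds Lin- and Lin-CD29hiCD24+ cells of the same tumours and pools, which are used below only for comparison, and both groups compared here share the sort, the strain and the amplification.

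As background, the mammary duct has an inner luminal layer and an outer basal, or myoepithelial, layer. CD29 is the beta1 integrin and CD24 a small surface glycoprotein; in normal gland the CD29+CD24+ gate collects mostly luminal cells and the CD29hiCD24+ gate mostly basal cells, among them cells that can regrow a gland. Luminal cells make keratins 8, 18 and 19, and some of them sense oestrogen and progesterone, whereas basal cells make keratins 5 and 14 under the transcription factor p63. Apc is a scaffold of the complex that marks beta-catenin for destruction. When that complex fails, beta-catenin joins TCF/LEF factors on DNA and turns on Wnt target genes, several of which, such as Axin2, Notum and Nkd2, feed back to damp the signal. Epidermis-type, squamous differentiation is a known feature of mammary tumours driven by this pathway.

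Values are log2 signals, so a difference of 1 is a 2-fold change, and a difference is written as tumour minus normal ± its standard error. Calls are those of limma over 13485 genes, at a p under 0.05 after Benjamini-Hochberg adjustment. About 40% of all values lie in a narrow low band at or under 2.83, taken here as the floor of detection, so a difference that starts in this band may understate the true one. Between tumour and normal CD29+CD24+ cells 5864 genes were called (43.5%), of which 2212 were higher (16.4%) and 3652 lower (27.1%) in tumour cells. The list counts below were not tested against these shares. The median over all genes tested was -0.01. A difference of at least 16-fold was seen for 586 called genes, 392 higher and 194 lower. The groups of arrays did not overlap for 6041 genes (44.8%). Because these are bulk samples of sorted cells, fewer cells of a type and less RNA per cell cannot be told apart.

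Tumour arrays correlated with each other at 0.95 to 0.98 and normal arrays at 0.99 to 0.991, against 0.83 to 0.88 between the groups. The first principal component of the 8 arrays held 77.8% of the variance and parted tumours from pools, and the second held 8.44% and ran from tumour A to tumour C. The numbers in the sample descriptions fall into runs, with tumours A and B in 19 to 24, C and D in 56 to 64, and tumour E with all 3 pools in 82 to 95; what these numbers record is not stated. Within the last run 3883 genes were called; its tumour group is tumour E alone, which is assumed to vary like the pools, since only they give a spread there. For actin the 3' signal less the 5' one, a measure of how much of the 5' end is lost, was 2.06 ± 0.36 in tumour arrays (SD, n = 5) and 1.61 ± 0.21 in normal arrays (SD, n = 3; exact permutation test, two-sided, p = 0.107, smallest possible 0.0179). For Gapdh the order was the opposite, 2.0 ± 0.22 in tumour arrays and 2.24 ± 0.03 in normal arrays (SD, n = 5 and 3; exact permutation p = 0.107). Their part in the results was not tested beyond a fit with actin as a covariate, which called 5352 genes.

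The sort was checked on its own markers. Itgb1, which encodes CD29, read 10.23, 10.39, 10.15, 9.72 and 10.31 in tumours A to E and 9.5, 9.11 and 9.78 in pools F to H, and this difference did not pass the test (0.69 ± 0.34, limma adjusted p = 0.108), though it did with the 8 arrays alone (adjusted p = 0.0249) and with actin as a covariate (1.18, adjusted p = 0.00018). Cd24a, which encodes CD24, read 13.69 to 14.17 in tumours and 15.41 to 15.47 in pools and fell by 1.47 (± 0.17, limma adjusted p = 5.2e-07). Both genes were thus well above the low band in every array, with CD24 lower in all tumours. Epcam, an epithelial adhesion molecule, stayed high at 13.32 to 14.01 in tumours and 14.37 to 14.54 in pools, lower by 0.86 ± 0.22. Ptprc, which encodes the leukocyte antigen CD45, read 2.75 to 4.36 in tumours and 2.66 to 2.72 in pools. The leukocyte antigen was thus at or near the low band except for modest signal in tumours C and D.

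Basal and myoepithelial genes had the highest median of the lists described here. Of 23 members tested 16 rose and none fell in tumour cells, with a median difference of 4.93 against -0.01 over all genes. The mean of the list lay between 8.59 and 8.92 in the tumour arrays and between 3.79 and 4.08 in the normal ones, so the 5 tumours were close to one another on it. Krt5, a keratin of the basal layer, read 13.87, 14.18, 13.93, 13.51 and 14.23 in tumours A to E and 3.15, 3.06 and 2.50 in pools F to H, a difference of 11.04 ± 0.46 (limma adjusted p = 7.83e-14). Its partner Krt14 read 14.59, 14.64, 14.58, 14.49 and 14.89 in tumours, against 4.20, 3.99 and 3.72 in pools (10.67 ± 0.41). In all 5 tumours both keratins stood near the top of the scale, while every pool was near the low band. Trp63, which encodes p63, read 13.17, 12.83, 13.27, 12.52 and 13.35 in tumours, against 2.77, 2.74 and 2.52 in pools (10.35 ± 0.33, limma adjusted p = 1.69e-15), so it was in the low band in each pool and in no tumour; the mean of its probe sets gave 5.46.

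Anchors to the basement membrane went the same way. Col17a1, a collagen of hemidesmosomes, rose by 11.14 ± 0.44, and the laminin chains Lama3 and Lamb3 rose by 7.78 ± 0.49 and 4.93 ± 0.30. Krt17, a keratin of stressed and follicular epithelium, rose by 10.73 ± 0.53, Snai2, a transcriptional repressor of basal cells, by 8.96 ± 0.39, and Sparc, a matrix protein, by 7.39 ± 0.43. Some smooth muscle genes of the list did not follow. Myh11, Cnn1, Actg2 and Oxtr, which mark contractile myoepithelium and its oxytocin receptor, read 3.50 or less in all 8 arrays, and Acta2, smooth muscle actin, read 6.86 to 9.81 in tumours and 6.91 to 7.96 in pools (1.25 ± 0.83, limma adjusted p = 0.255). Keratin, p63 and hemidesmosome transcripts were thus high in every tumour. Myh11, Cnn1, Actg2 and Oxtr were not, and the groups overlap for Acta2. Other smooth muscle genes, Tagln, Myl9 and Mylk, are not covered by this statement.

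**Figure D1:**
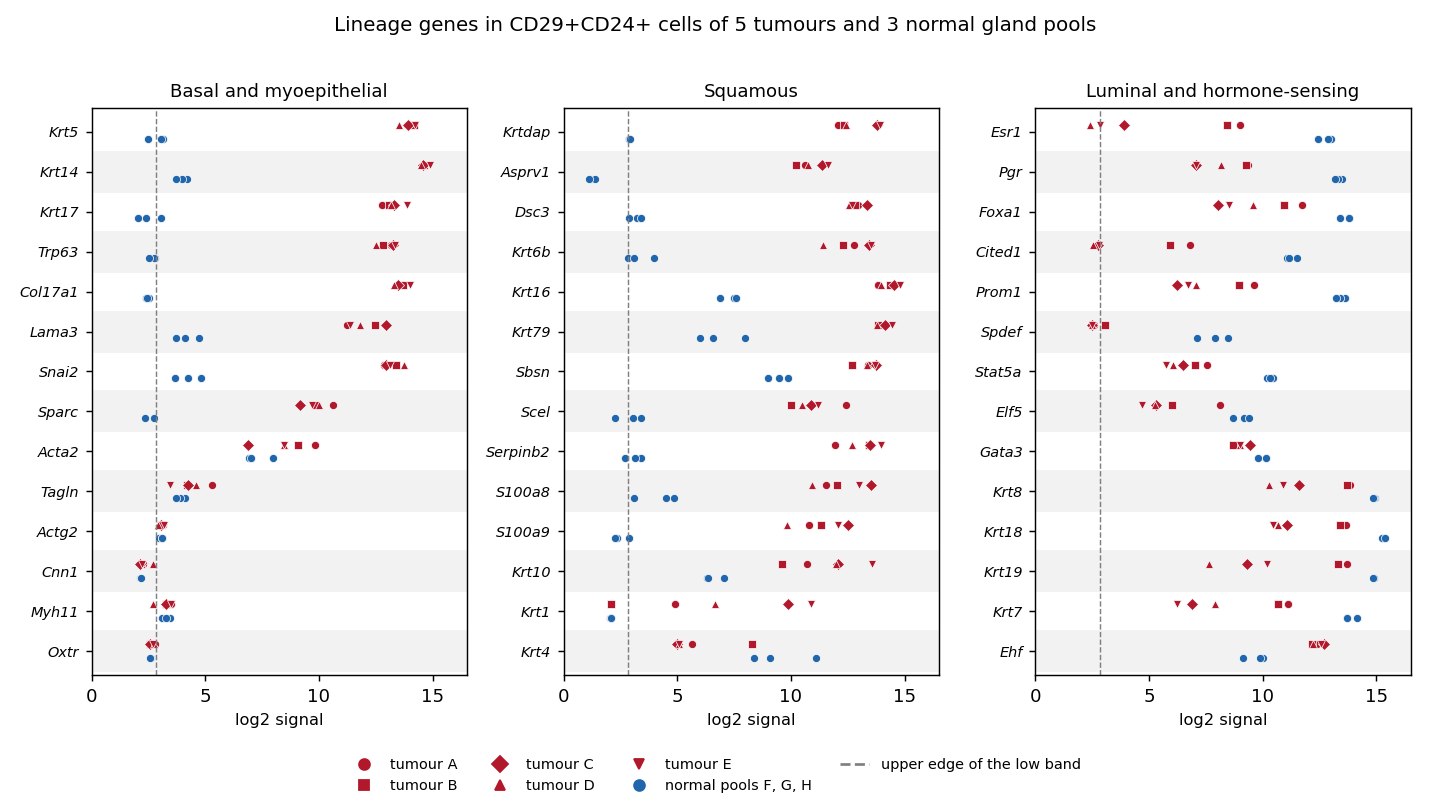
Log2 signal (horizontal axis) of basal, squamous and luminal genes in each CD29+CD24+ array; red symbols are tumours A to E, drawn above the blue normal pools F to H of the same gene, and the dashed line is the upper edge of the low band at 2.83. Krt5, Krt14, Trp63 and Col17a1 read over 12 in all tumours and under 5 in all pools, the contractile genes Actg2, Cnn1 and Myh11 stay low in both, and tumours A and B lie between the other tumours and the pools for most luminal genes.

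Squamous genes rose beside the basal ones. Of 23 keratins and cornified envelope genes tested 17 rose and 1 fell, with a median difference of 3.94. Krtdap, a secreted protein of differentiating keratinocytes, read 12.08, 12.35, 13.81, 12.43 and 13.94 in tumours A to E and 2.90, 2.87 and 2.91 in pools (10.03 ± 0.44, limma adjusted p = 1.81e-13). Krt6b, a keratin of activated epidermis, rose by 9.37 ± 0.50, and Scel, the envelope protein sciellin, by 8.08 ± 0.52. The exception was Krt4, a keratin of non-cornified mucosa, which fell by 3.70 (± 0.83; adjusted p = 0.0759 without tumours A, C and E), while Krt6a was high in both, at 14.41 to 15 in tumours and 13.55 to 14.25 in pools (0.86 ± 0.40, limma adjusted p = 0.0953, and 0.00611 with the 8 arrays alone). The tumours differed more on this list than on the basal one, since its mean was 10.19 in tumour C and 9.86 in tumour E and 8.59 to 8.86 in tumours A, B and D, against 5.11 to 5.47 in the pools. Late envelope genes were uneven: Flg, the filaggrin precursor, read 7.56, 7.36 and 6.65 in tumours C, D and E and 3.44 and 3.41 in A and B, against 3.19 to 3.26 in the pools (2.46 ± 1.01, limma adjusted p = 0.0532, and 0.00763 without tumour A and 0.0194 without tumour B).

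Desmosome and skin protease genes were mostly higher too. Among 12 desmosome genes 9 rose and 2 fell. Dsc3, a desmosomal cadherin of stratified epithelium, rose by 9.70 ± 0.44 and Pkp1, a plakophilin of the same layers, by 3.74 ± 0.23, while Dsg2 and Pkp2, which serve simple epithelia, fell by 1.57 (± 0.46) and 4.81 (± 0.97). Of 19 kallikreins and skin protease inhibitors 10 rose and 2 fell. Serpinb2, an inhibitor of urokinase, rose by 10.01 ± 1.04, and the skin protease Klk8 by 6.09 ± 0.77. Asprv1, an aspartic protease that cuts filaggrin precursor, read 10.22 to 11.62 in tumours and 1.14 to 1.38 in pools (9.68 ± 0.36), with no overlap and no pool outside the low band. S100a8 and S100a9, the subunits of calprotectin, rose by 8.06 ± 0.80 and 8.81 ± 0.57, which are also known from neutrophils. The leukocyte marker list had 0 of 12 members called by limma, and 0 at an unadjusted p under 0.05. These tests rest on the spread within all 6 groups. In normal CD29hiCD24+ cells some members spread widely, with an SD of 4.42 for Laptm5 and 3.35 for Ptprc. The missing calls therefore cannot show that leukocytes were absent. With the 8 arrays alone Laptm5 was called (limma adjusted p = 0.0375). The list mean was 5.12 and 5.34 in tumours C and D. It was 3.20 to 4.03 in the other tumours and 3.70 to 3.84 in pools. The part of other cell types in the S100a8 and S100a9 signal was not tested. In the hair follicle list 6 of 14 members rose and 3 fell, among them Sox21, a factor of hair and enamel epithelium, higher by 3.13 ± 0.30, and the signal protein Shh, higher by 3.14 ± 0.61, a call lost within the run of tumour E and the pools (2.21, adjusted p = 0.0538).

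Luminal genes were lower, and here the tumours parted. Of 19 luminal keratins and surface genes 14 fell and 2 rose, with a median difference of -2.61. Krt8 read 13.83 and 13.71 in tumours A and B and 11.59, 10.29 and 10.87 in tumours C, D and E, against 14.92, 14.91 and 14.86 in pools F, G and H. All tumours lay below all pools, but A and B by about 1 log2 unit and the other tumours by more than 3. The mean difference of Krt8 was -2.84 ± 0.92 (limma adjusted p = 0.0163), and the call was lost without tumour D, where the difference was -2.39 with adjusted p = 0.0502, and without pool F, G or H, with adjusted p from 0.0593 to 0.0608. Krt19 fell by 4.05 (± 1.35, limma adjusted p = 0.0190) and was no longer called without tumour C (adjusted p = 0.0587), tumour D (0.0579) or pool F, G or H (0.0551, 0.0621 and 0.065). Krt18, the partner of Krt8, fell by 3.48 (± 0.85, limma adjusted p = 0.00210), and Krt7, a duct keratin, by 5.29 (± 1.16). Tumours A and B were highest of the tumours on both, at 13.67 and 13.38 for Krt18 and 11.12 and 10.66 for Krt7. Prom1, a surface protein of hormone-sensing cells, fell by 5.69 (± 0.68), and Cldn3 and Cldn7, claudins of tight junctions, by 4.22 (± 0.87) and 4.75 (± 0.95). The 2 members that rose were Anxa8, an annexin, by 7.99 ± 0.36, and Kit, a receptor of luminal progenitors, by 2.18 ± 0.59. Kit lost its call within the run of tumour E and the pools (1.73, adjusted p = 0.143).

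Luminal transcription factors were lower in 10 of 18 and higher in 2. Foxa1, a factor that opens chromatin for the oestrogen receptor, read 11.71, 10.94, 8.04, 9.56 and 8.53 in tumours A to E and 13.40, 13.79 and 13.78 in pools (-3.90 ± 0.76). Gata3, which maintains luminal identity, fell by 1.06 (± 0.29), Elf5, the driver of alveolar cells, by 3.21 (± 0.84), and Stat5a, the mediator of prolactin signals, by 3.76 (± 0.33). Spdef, an Ets factor, was at 7.11 to 8.47 in pools and at 3.07 or less in every tumour, and fell by 5.20 (± 0.40). Not all of the list moved: Grhl2 and Xbp1 read within 0.10 log2 units of normal, with differences of -0.06 ± 0.27 and -0.10 ± 0.11. Ehf, an epithelial Ets factor, rose by 2.73 ± 0.58 and Cebpb by 2.22 ± 0.28; the call of Ehf was lost within the run of tumour E and the pools (adjusted p = 0.136), as was that of Elf5 (adjusted p = 0.083).

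Hormone-sensing genes were lower in 10 of 16 and higher in 3, with a median of -2.86. Esr1, the oestrogen receptor, read 9.0 and 8.41 in tumours A and B and 3.91, 2.42 and 2.83 in C, D and E, against 12.45, 13.02 and 12.88 in the pools (-7.47 ± 1.26, limma adjusted p = 5.39e-05). Tumours D and E were thus at the low band for Esr1, tumours A and B midway, and no tumour reached a pool. Pgr, the progesterone receptor, read 7.08 to 9.36 in tumours and 13.20 to 13.50 in pools (-5.14 ± 0.58). Cited1, a coregulator of the oestrogen receptor, fell by 7.07 (± 0.96) and Wnt4, a progesterone target, by 4.30 (± 0.50). Tnfsf11, the cytokine RANKL, was among the 3 higher members at 2.69 ± 0.90, a call lost without pool F or G (adjusted p = 0.111 and 0.104). The 3 higher members came to 1 without pool F, 0 without pool G and 1 without pool H. The partial luminal signal of tumours A and B runs with their description numbers, and its relation to them was not tested.

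Other genes that fell furthest were of mixed function. The 12 lowest differences among genes with separate groups ran from -9.15 for Fgb, the fibrinogen beta chain, to -6.90 for Tmem86a, a lysoplasmalogenase. Fgb read 6.87 and 7.07 in tumours A and B and 2.57, 2.15 and 2.59 in C, D and E, against 13.18 to 13.54 in pools. Dmbt1, a secreted scavenger receptor, gave the same split, with 9.05 and 9.34 in A and B and 2.09 to 2.70 in the other tumours, against 13.61 to 14 in pools. Syn2, a synapsin, was low in all tumours, at 2.38 to 3.61, against 10.49 to 11.53 in pools (-8.18 ± 0.59). Slc5a5, the sodium iodide symporter (-7.88 ± 1.17), Ido1, which breaks down tryptophan (-7.29 ± 1.55), Agtr1a, an angiotensin receptor (-7.18 ± 1.05), and Aoc1, a diamine oxidase (-7.15 ± 0.86), completed the group with Rbm20, Esr1, Cited1 and Cxcl15.

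A stricter description counts genes above 7.25, the 75th percentile of the whole matrix, in every array of 1 group and in the low band in every array of the other. There were 49 genes of this kind high in all 5 tumours, among them Trp63, Col17a1, Jag2, Bmp7, Notum, Nkd2, Lgr5, Ccnd2, Fat2 and Pou3f1. The reverse held for 5 genes, Nrg4, Folr2, Fxyd6, Dnaic1 and 4921525O09Rik. Nrg4, a ligand of the receptor ErbB4, read 2.11 to 2.15 in tumours and 7.30 to 8.08 in pools (-5.48 ± 0.23).

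Wnt feedback and target genes were also mostly higher. Of 22 members tested 14 rose and 1 fell, with a median of 3.49, against 0.55 in CD29hiCD24+ cells. Normal CD29hiCD24+ cells already averaged 11.34 for Wif1, 10.85 for Apcdd1, 12.47 for Procr, 10.35 for Lgr6 and 9.85 for Lgr5. They averaged less for Axin2 (4.61), Notum (2.38) and Tnfrsf19 (4.89). How far the rise goes with that of the basal genes was not tested. Axin2, a scaffold of the destruction complex and the usual reporter of beta-catenin activity, read 8.24, 7.79, 6.84, 7.81 and 7.75 in tumours A to E and 2.74, 2.72 and 2.96 in pools F to H (4.88 ± 0.35, limma adjusted p = 4.39e-10). Notum, a deacylase that inactivates Wnt ligands, read 9.10, 9.01, 7.5, 9.79 and 9.24 in tumours and 2.57, 2.57 and 2.59 in pools (6.35 ± 0.45). Wif1, a secreted protein that binds Wnt ligands, had the largest difference of any gene with separate groups, 14.53, 14.46, 14.76, 14.72 and 14.71 in tumours and 3.15, 3.14 and 3.29 in pools (11.44 ± 0.43, limma adjusted p = 1.72e-14). Tumour C was lowest of the tumours for Axin2 and Notum, and for none of the 3 genes did a tumour come near a pool. Nkd2, which restrains Dishevelled, rose by 7.35 ± 0.59, Apcdd1, a membrane inhibitor of Wnt receptors, by 6.48 ± 0.36, and the receptor ligases Znrf3 and Rnf43 by 2.61 ± 0.33 and 2.0 ± 0.43, the call of Rnf43 being lost within the run of tumour E and the pools (1.36, adjusted p = 0.189). The R-spondin receptors Lgr5 and Lgr6 rose by 6.13 ± 0.55 and 4.5 ± 0.47, the receptor Procr by 7.15 ± 0.61, and Tnfrsf19, a TNF receptor family member, by 5.89 ± 0.63. Myc, Ccnd1 and Sox9, also known as targets, did not pass the test, with differences of 0.22 ± 0.44, 0.37 ± 0.26 and -0.83 ± 0.54, and Ascl2, Prox1 and Tdgf1 read 3.88 or less in all 8 arrays.

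To show what stands before these genes, the 250 bases before the annotated start were taken from RefSeq (GRCm38.p6) and searched on both strands for CTTTGAT and CTTTGAA, the core heptamers that TCF/LEF proteins bind. Windows of 14 of the 22 members were searched, and 1 window held a heptamer. The other members, Apcdd1, Notum and Lgr5 among them, were not searched. Windows on 1 chromosome were left out of the member search by rule. The shares that follow carry no such rule. A heptamer was found in 7.48% of the 32851 windows of the table and for 6.74% of 10838 tested genes with a window. The member count was not tested against these shares. Axin2 and Wif1 are shown as the usual reporter and as the gene with the largest difference, and Tnfrsf19 as the member with a heptamer. They lie at chr11:108920099-108920348 (plus strand), chr10:121033754-121034003 (plus strand) and chr14:61037988-61038237 (minus strand), each read 5' to 3' on the strand of its gene, with any heptamer in capitals. G and C make up 69.2%, 62.8% and 59.2% of them, against a median of 52.4% over all windows.
Axin2: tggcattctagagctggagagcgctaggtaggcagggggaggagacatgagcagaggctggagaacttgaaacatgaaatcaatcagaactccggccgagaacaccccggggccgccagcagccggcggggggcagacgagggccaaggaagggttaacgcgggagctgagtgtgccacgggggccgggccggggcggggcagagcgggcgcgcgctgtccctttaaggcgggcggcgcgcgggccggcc
Wif1: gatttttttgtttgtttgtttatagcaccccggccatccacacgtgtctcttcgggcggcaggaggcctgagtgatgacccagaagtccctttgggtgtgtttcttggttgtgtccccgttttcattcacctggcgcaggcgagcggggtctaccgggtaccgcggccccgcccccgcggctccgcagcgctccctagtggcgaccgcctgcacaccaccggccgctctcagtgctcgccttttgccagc
Tnfrsf19: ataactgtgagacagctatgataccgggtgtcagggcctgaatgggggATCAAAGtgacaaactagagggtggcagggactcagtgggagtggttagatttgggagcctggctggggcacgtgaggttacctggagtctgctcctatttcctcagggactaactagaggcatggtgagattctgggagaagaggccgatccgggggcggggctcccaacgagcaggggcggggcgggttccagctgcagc

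The capitals in the Tnfrsf19 window are ATCAAAG, the heptamer CTTTGAT on the other strand, and the other windows hold none. Only these letters in this short stretch were searched, and TCF/LEF sites known for Wnt targets often lie elsewhere.

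**Figure D2:**
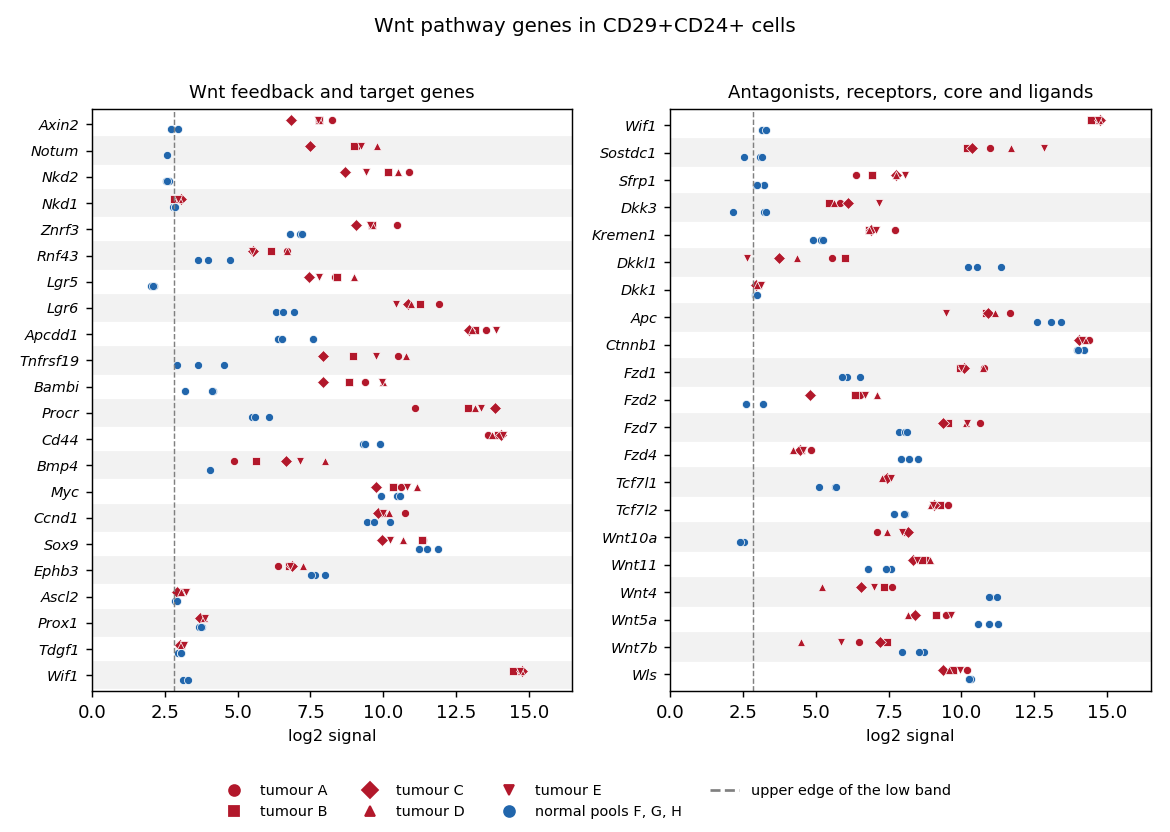
Log2 signal (horizontal axis) of Wnt feedback genes (left) and of antagonists, receptors, core and ligand genes (right) in each CD29+CD24+ array; tumours A to E are red and lie above the blue normal pools of the same gene, and the dashed line is the upper edge of the low band. Axin2, Notum, Nkd2, Lgr5 and Wif1 lie at 6.84 or more in every tumour and at 3.29 or less in every pool, whereas Myc, Ccnd1 and Ctnnb1 overlap.

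Secreted antagonists rose in 7 of 14 and fell in 1, with a median of 1.3, against 0.01 in CD29hiCD24+ cells. Sostdc1, an inhibitor of BMP and Wnt signals in skin and tooth, read 10.98, 10.18, 10.36, 11.70 and 12.83 in tumours and 3.07, 3.16 and 2.53 in pools (8.29 ± 0.63). Sfrp1 and Dkk3 rose by 4.33 ± 0.43 and 3.14 ± 0.45, while Dkkl1 fell by 6.25 (± 0.54), and Dkk1, which blocks the coreceptors, read 3.10 or less throughout. Among 26 receptor and core genes 12 rose and 5 fell, with a median of 0.32, and the counts were 7 and 3 within the run of tumour E and the pools; the 5 that fell also came to 3 without pool F. The receptors Fzd1, Fzd2 and Fzd7 rose by 4.16 ± 0.27, 3.49 ± 0.51 and 1.96 ± 0.37, and Fzd4, the receptor of Norrin, fell by 3.71 (± 0.57). Ctnnb1, which encodes beta-catenin, read 14.03 to 14.38 in tumours and 13.96 to 14.20 in pools (0.13 ± 0.11, limma adjusted p = 0.398). Apc itself read 11.68, 10.84, 10.93, 11.17 and 9.49 in tumours A to E and 13.41, 13.08 and 12.61 in pools, a fall of 2.21 (± 0.56, limma adjusted p = 0.00297), with every tumour below every pool; where its probe set lies relative to the truncation was not examined. Of 13 ligand genes tested 2 rose and 4 fell, and the 4 came to 2 without pool H and 2 with actin as a covariate. Wnt10a, a ligand of skin and its appendages, rose by 5.33 ± 0.45 and Wnt11 by 1.39 ± 0.30, while Wnt5a fell by 1.97 (± 0.39). The calls of Wnt11 and Wnt5a were lost within the run of tumour E and the pools (adjusted p = 0.0869 and 0.0682).

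Other signalling families moved in part. In the Id and BMP list 11 of 19 rose and 1 fell, with a median of 1.51, against -0.01 in CD29hiCD24+ cells. Fst, which traps activin and BMP, read 13.46 to 14.44 in tumours and 4.57 to 4.95 in pools (9.17 ± 0.37), Id4, an inhibitor of helix-loop-helix factors in basal cells, rose by 8.41 ± 0.50, and the ligands Bmp2 and Bmp7 by 6.95 ± 0.44 and 6.14 ± 0.38. None of these 4 genes overlapped between the groups. In the Notch list 7 of 19 rose and 2 fell, the 2 coming to 1 without tumour B, pool F or pool H. The ligands Jag2, Dll1 and Jag1 rose by 6.26 ± 0.43, 4.25 ± 0.47 and 2.56 ± 0.27 and the receptor Notch1 by 2.15 ± 0.34. The targets Hes1 and Hey1 did not pass the test (-0.35 ± 0.89 and 0.56 ± 0.47). Hes1 was called lower with the runs of description numbers as a block (-1.63, limma adjusted p = 0.0236). Hey1 was in the low band in 4 tumours and 3 pools, so its missing call says little. Among 12 EGF family genes 5 rose and 3 fell, against 16.4% higher and 27.1% lower over all genes. The 5 came to 3 with the runs of description numbers as a block. Egfr, the receptor, rose by 5.78 ± 0.34 and the ligand Nrg1 by 5.24 ± 0.63, and the ligands Btc and Nrg4 fell by 5.24 (± 0.50) and 5.48 (± 0.23).

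Cell cycle genes were higher. Of 27 tested 19 rose and 1 fell, with a median of 2.33. Mki67, a marker of cycling cells, read 10.74, 9.85, 9.92, 10.90 and 10.41 in tumours and 4.33, 5.73 and 6.07 in pools (4.99 ± 0.52, limma adjusted p = 1.2e-07). Rrm2, which makes DNA precursors, rose by 5.53 ± 0.45 and Top2a, a topoisomerase of dividing cells, by 4.68 ± 0.50. Tumour C had the lowest list mean of the tumours, 6.86, and tumour A the highest, 8.05, all above the pools at 5.07 to 5.37. In the list of CDK inhibitors, D cyclins, MYC factors and Mdm2 6 of 14 rose and 1 fell. Ccnd2, a D cyclin, rose by 7.75 ± 0.45, Mycn, a MYC family factor, by 4.46 ± 0.63, and the inhibitors Cdkn2b and Cdkn1a by 2.64 ± 0.48 and 2.37 ± 0.17, while Cdkn2a, another inhibitor, did not pass the test (0.47 ± 0.40). In the hypoxia and glycolysis list 9 of 18 rose and 1 fell, with Egln3, an oxygen sensor, higher by 3.30 ± 0.45 and Hk2, a hexokinase, by 1.94 ± 0.18, while Car9 and Vegfa did not pass the test (0.88 ± 0.59 and 0.38 ± 0.34).

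Respiratory chain genes shifted little but mostly downward. Of 27 members 11 fell and none rose, with a median of -0.37, and the list mean was 11.50 to 11.89 in tumours and 12.01 to 12.25 in pools. The 11 calls came to 7 with actin as a covariate or with the runs of numbers as a block, 6 without pool F and 3 within the run of tumour E and the pools. Ndufs4, a subunit of complex I, fell by 1.25 (± 0.22), and Sdhb, a subunit of complex II, by 0.80 (± 0.16). Among 23 epithelial junction genes 11 fell and 2 rose, with Cgn, the tight junction protein cingulin, lower by 3.28 ± 0.59 and Prss8, a membrane protease, lower by 3.97 ± 0.41. Cdh1, which encodes E-cadherin, read 13.71 to 13.96 in tumours and 14.06 to 14.27 in pools and did not pass the test (-0.26 ± 0.15, limma adjusted p = 0.163), though it did with the 8 arrays alone (adjusted p = 0.0494).

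Stromal and mesenchymal genes were measured as a check on other cell types. In the mesenchymal transition list 6 of 18 rose and 0 fell, with Tgfbi, a matrix protein, at 8.05 ± 0.61, Mmp2, a gelatinase, at 6.54 ± 0.46 and Vim, vimentin, at 5.10 ± 0.61. Zeb1, Twist1 and Twist2, the transition factors, read 3.60 or less in all 8 arrays. In the fibroblast and matrix list 9 of 19 rose and 1 fell, its mean being 5.06 to 6.11 in tumours and 3.44 to 3.66 in pools. Col5a2 (7.0 ± 0.50), Fbln2 (6.75 ± 0.43), Fbln1 (6.59 ± 0.52) and Dcn (3.56 ± 0.53) rose, all of them matrix genes, and Col6a3 fell by 5.71 (± 1.06). Pdgfra, a growth factor receptor of fibroblasts, read 5.17 to 7.96 in tumours and 2.63 to 3.95 in pools (2.65 ± 0.62, limma adjusted p = 0.00154), and did not pass within the run of tumour E and the pools (1.78, adjusted p = 0.123). Col3a1, a fibrillar collagen, read 7.26, 9.64 and 7.02 in tumours A, C and D and 2.87 and 3.21 in tumours B and E, against 2.66 to 3.27 in pools (2.94 ± 1.45, limma adjusted p = 0.111). Col1a1 read 4.73 in tumour C and 3.28 or less in every other array, and Lum, Mfap5 and Pi16, also of this list, read 2.61 or less in all 8 arrays. Endothelial markers had 0 of 14 members higher and 2 lower (1 without pool G or H), with Cldn5, Kdr and Sox18 at 2.14 or less in all 8 arrays, and the list mean was 2.94 to 3.89 in tumours and 3.44 to 3.59 in pools. Pericyte markers had 1 of 6 higher and 1 lower, with a mean of 3.96 to 5.79 in tumours and 3.77 to 3.98 in pools, highest in tumour A. Of the 12 leukocyte markers 4 had every tumour above every pool, Ptprc, Cd68, Laptm5 and Coro1a, without a call. The same held for 2447 of all 13485 genes. Cd68 read 5.30 in tumour D and 3.72 to 3.96 in the other tumours, against 3.32 to 3.64 in pools. Lyz1 read 8.51 in C and 10.19 in D, against 4.45 or less in the other tumours and 3.25 or less in pools, and Laptm5 read 7.96 and 8.37 in the same tumours and passed with the 8 arrays alone (adjusted p = 0.0375). Normal CD29hiCD24+ cells also averaged 14.11 for Vim, 11.33 for Mmp2, 12.01 for Col5a2, 11.54 for Dcn and 9.03 for Fbln2. They averaged less for Tgfbi (8.37) and Fbln1 (5.10). The tumour-minus-normal medians in that gate were -0.06 for the mesenchymal transition list and -0.84 for the fibroblast and matrix list. Whether stromal or basal cells add to the matrix gene results was not tested.

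**Figure D3:**
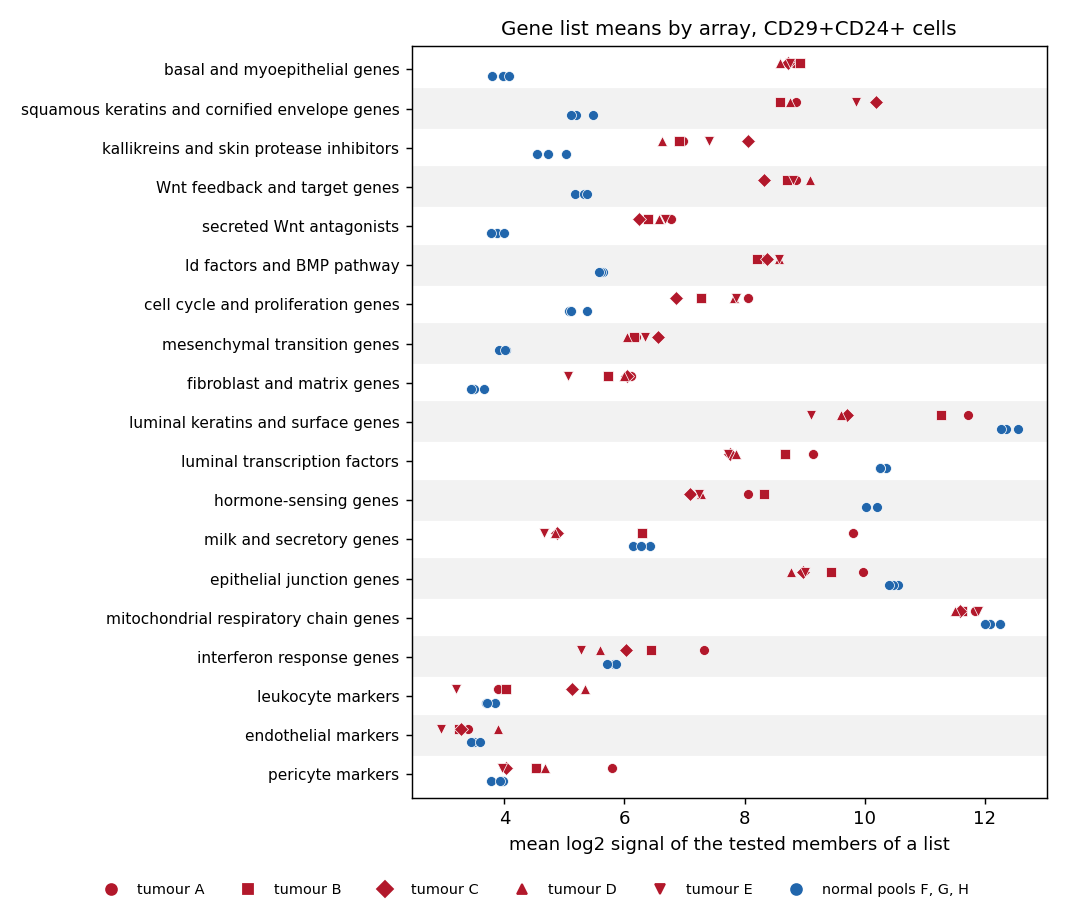
Mean log2 signal (horizontal axis) of the tested members of 19 gene lists, 1 symbol per CD29+CD24+ array, with tumours A to E in red above the blue normal pools F to H. Basal genes are at 8.59 to 8.92 in tumours and 3.79 to 4.08 in pools, tumours A and B are nearest the pools for luminal keratins, luminal transcription factors and hormone-sensing genes, and the leukocyte mean is highest in tumours C and D.

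The same tumour-minus-normal difference was then set against that of the other sorted populations of the same tumours and pools, by a test of the difference between differences over all genes. Between tumour and normal cells 5199 genes were called in the CD29hiCD24+ gate (38.6%) and 5470 in Lin- cells (40.6%). The CD29+CD24+ difference differed from the CD29hiCD24+ one for 5665 genes (42.0%), larger for 2669 (19.8%) and smaller for 2996 (22.2%). Of the 23 basal genes 21 were called in this test, and all 21 had the larger value in CD29+CD24+ cells, with a list median of 4.93 there and -0.27 in CD29hiCD24+ cells. The group means show where this lies. Krt14 averaged 14.67 ± 0.15 in tumour CD29hiCD24+ cells (SD, n = 5) and 14.35 ± 0.06 in normal ones (SD, n = 3), so normal CD29hiCD24+ cells were close to the tumour cells of both gates, and normal CD29+CD24+ cells were far below at 3.72 to 4.20. The tumour-minus-normal difference of Krt14 was 10.67 ± 0.41 in CD29+CD24+ cells and 0.32 ± 0.41 in CD29hiCD24+ cells, 10.35 ± 0.58 apart.

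Igfbp3, an IGF binding protein, gave the widest gap, with differences of 10.67 ± 0.60 and -0.45 ± 0.60 and 11.12 ± 0.85 between them. Mmp2 and Lgr5 had opposite signs in the gates. Mmp2 rose by 6.54 ± 0.46 in CD29+CD24+ cells and fell by 3.42 (± 0.46) in CD29hiCD24+ cells, and Lgr5 rose by 6.13 ± 0.55 and fell by 2.24 (± 0.55). Normal CD29hiCD24+ cells had the highest mean of Lgr5, 9.85 ± 0.04 (SD, n = 3), against 7.62 ± 0.70 in tumour CD29hiCD24+ cells (SD, n = 5). Axin2 rose in both gates, by 4.88 ± 0.35 and 3.35 ± 0.35, and Krtdap by 10.03 ± 0.44 and 8.86 ± 0.44; the gap between gates passed the test for Axin2 (1.53 ± 0.50, limma adjusted p = 0.0178) and not for Krtdap (1.17 ± 0.63, limma adjusted p = 0.144). In the Wnt feedback list 15 of 22 members had the larger difference in CD29+CD24+ cells. The list median was 3.49 there and 0.55 in CD29hiCD24+ cells. In the squamous list 11 of 23 were called in this test, 7 of them larger. The cell cycle list had 10 of 27 called, of which 2 were larger, and its median difference was 2.33 in CD29+CD24+ cells and 3.54 in CD29hiCD24+ cells. At the other end, Aoc1 fell by 7.15 (± 0.86) here and had a difference of -0.47 ± 0.86 in CD29hiCD24+ cells, and Steap1, a metalloreductase, fell by 4.15 (± 0.45) here and rose by 1.77 ± 0.45 there.

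Against the Lin- population, which the sorted gates are part of, the difference of CD29+CD24+ cells differed for 246 genes (1.82%), larger for 221 (1.64%) and smaller for 25 (0.185%); with the tumour or pool letter as a block the count was 444. Of the 23 basal genes 15 were among them. Krt14 differed by 7.33 ± 0.58, Krt17 by 7.30 ± 0.74 and Antxr1, an anthrax toxin receptor that binds collagen, by 7.31 ± 0.43. Normal Lin- cells were intermediate for Krt14, at 11.37 ± 1.71 (SD, n = 3), with 14.71 ± 0.16 in tumour Lin- cells (SD, n = 5).

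**Figure D4:**
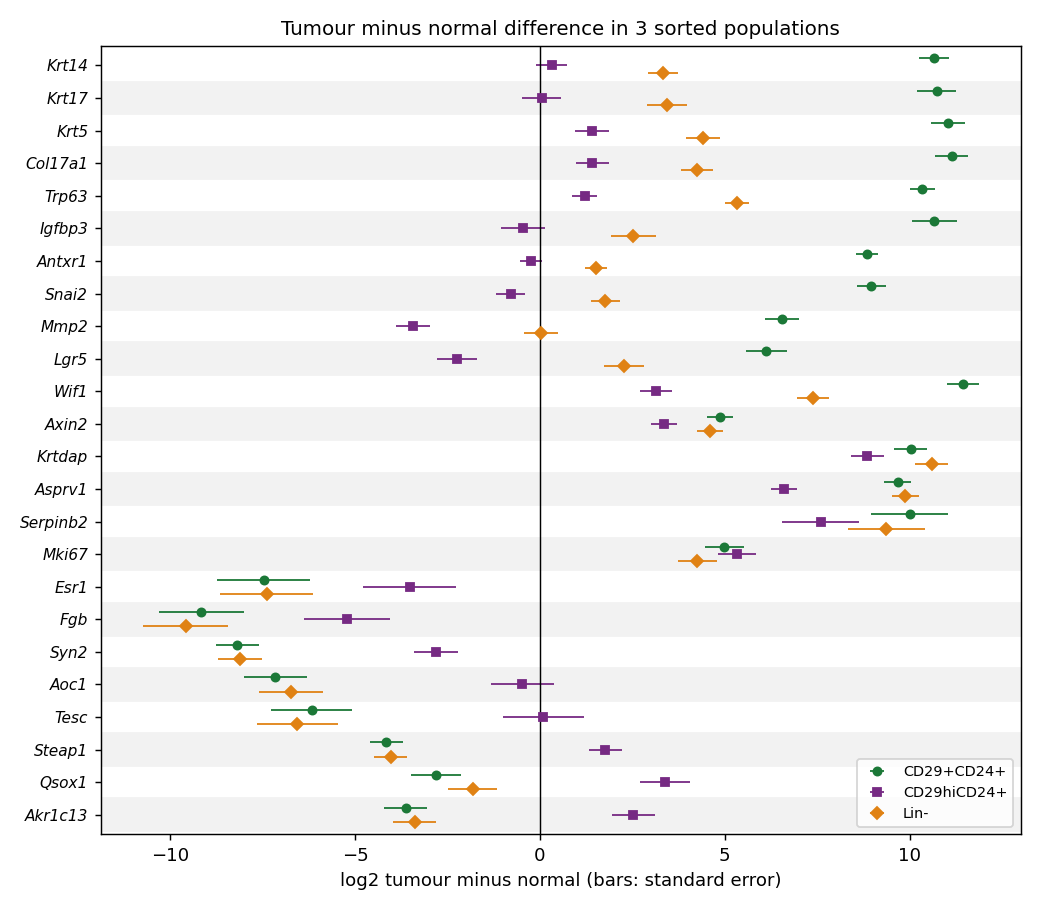
Log2 tumour minus normal (horizontal axis, bars give the standard error) for 24 genes in CD29+CD24+ (green circles), CD29hiCD24+ (purple squares) and Lin- cells (orange diamonds), each from 5 tumours and 3 pools. Krt14, Krt17, Igfbp3 and Snai2 are far to the right in CD29+CD24+ cells and near 0 in CD29hiCD24+ cells, whereas Krtdap, Asprv1 and Mki67 are to the right in all 3 populations.

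The tumours themselves were not alike. The median SD of a gene was 0.313 over the 5 tumours and 0.201 over the 3 pools, and 872 genes had an SD over 1 in tumours, against 111 in pools. The widest spread belonged to genes of milk and saliva. Csn1s2a, a casein, read 14.53 in tumour A and 2.31 to 2.64 in tumours B to E, against 2.27 to 3.25 in pools, and Csn2, beta casein, read 14.09 in A, 6.70 in B and 2.04 to 2.10 in C, D and E, against 2.02 to 2.05 in pools. A gap of at least 4 log2 units above every other array set tumour A apart for 9 genes, among them the milk proteins Csn1s1, Wap and Glycam1. None of the milk genes high in tumour A alone passed the test between groups, Csn1s2a having a difference of 2.19 ± 2.70 (limma adjusted p = 0.574). These genes were singled out after their values were seen.

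Tumours C and E shared 9 genes at the same gap; these genes were picked after their values were seen. Bpifa2, a salivary secretory protein, read 14.69 in C and 13.31 in E and 2.22 to 2.26 in the other tumours, against 2.25 in every pool. Amy1, salivary amylase, read 15.19 in C and 13.42 in E, with 2.91 to 3.31 in the other tumours and 5.88 to 7.06 in pools. Pip, Chia1, Dnase1, Car6, Cst10, Smr3a and 2310057J18Rik made up the rest. Tumour C alone had 11 more, among them Mucl2 (13.88), Scgb1b27 (13.39) and Lpo (7.52), the last a peroxidase of milk and saliva. In the sister arrays Bpifa2 was high in the Lin- and CD29hiCD24+ cells of tumour C (14.57 and 14.29), but in tumour E only the Lin- cells had it (12.23), and the CD29hiCD24+ cells read 2.29. Without tumours C and E, an alternative chosen after seeing the data, the tumour-minus-normal comparison called 5274 genes, and Amy1 was then lower in tumours (-3.58). The source of these transcripts was not tested.

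**Figure D5:**
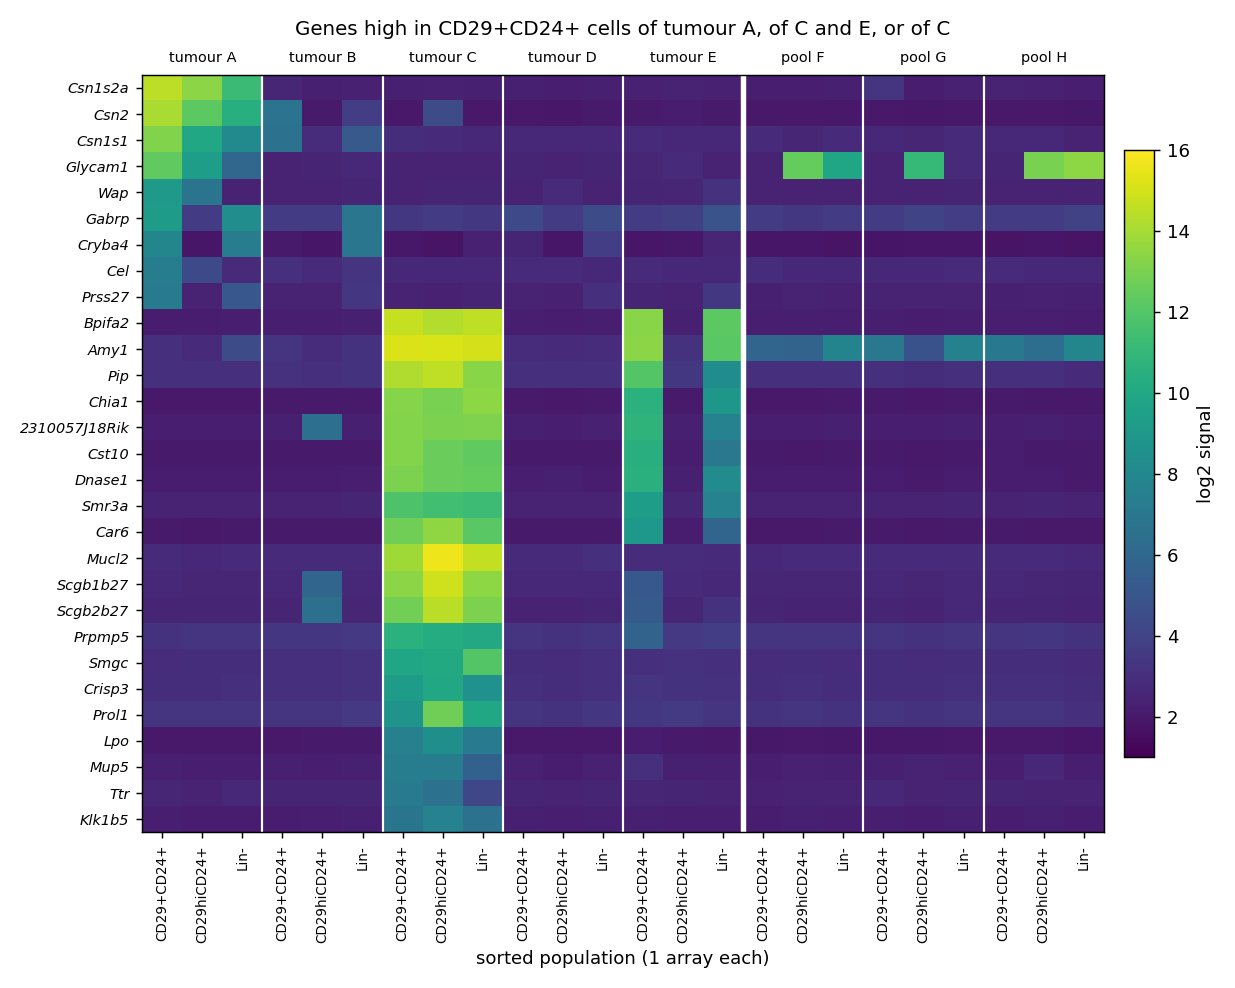
Log2 signal (colour) of the genes set apart in tumour A, in C and E, or in C, over all 24 arrays; columns are the 3 sorted populations of each tumour A to E, then of each pool F to H. Csn1s1, Csn1s2a and Csn2 are high in the 3 populations of tumour A, Bpifa2, Amy1 and Pip in the 3 populations of tumour C and in the CD29+CD24+ and Lin- cells of tumour E, and Glycam1 also in normal CD29hiCD24+ cells.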

How the data were processed

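Signals of 45101 probe sets on 24 Affymetrix mouse arrays were used as deposited, as log2 values (0.489 to 16.06). The submitters' processing notes name RMA, GCRMA and Partek, with no order or role, and no version is given in the sources used here; how the authors made the log2 values is otherwise not stated. Samples were grouped by their titles. Titles of 2 normal arrays, the CD29+CD24+ one among them, lack a pool letter and were read as pool H, the only one left.

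Gene names came from the platform annotation. Of the probe sets, 34945 name 1 gene, 932 several and 9160 none, and 64 are controls; 34741 matched a reference gene. A probe set was kept if 3 or more arrays exceeded 2.83, the 40th percentile over the whole matrix, and each gene was represented by its kept probe set with the highest mean, which gave 13485 genes.

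Means of 6 groups were fitted over all 24 arrays with limma 3.58.1 in R 4.3.3, with a mean-variance trend and 18 residual degrees of freedom, and p-values were adjusted by Benjamini-Hochberg over all genes; every adjusted p in the text comes from limma. The fit was tested on simulated data with independent arrays and the same spread of a gene in every group. Such data cannot check whether arrays of the same tumour or pool are independent. The labels call the tumours independent and the pools independently isolated. The p-values and standard errors rest on the spread within all 6 groups, not on the 8 CD29+CD24+ arrays alone. For Krt14 the SD was 0.15 in tumour and 0.24 in normal CD29+CD24+ arrays and 1.71 in normal Lin- arrays, and the standard error was 0.41. The 18 degrees of freedom treat arrays of the same tumour or pool as independent. With the 8 arrays alone 5697 genes were called, 5390 of them shared. The difference between the CD29+CD24+ contrast and that of another population was tested as an interaction. Tumour or pool letters are shared across the populations: deviations of same-letter arrays correlated at a median of 0.578 in tumours (15 pairs) and 0.142 in pools (9 pairs), against -0.167 and -0.0705 for other pairs, and a fit with the letter as a random block was an alternative. The other alternatives were the low-value filter, quantile normalisation and median centring, the mean of probe sets, no trend, array weights, the 8 arrays alone, the description-number runs, actin as a covariate and leaving out each tumour or pool with all 3 of its arrays.

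Named genes were the 12 highest and 12 lowest differences among called genes with separate groups, index genes and up to 3 highest and 3 lowest called members of each list, the 5 highest and 5 lowest of each interaction and the 10 most variable genes over tumours. Other genes were named after their values were seen. The members and the lists were chosen with earlier results of these data known. Precision is limited by 5 and 3 arrays.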

Additional observations from a re-analysis of the deposited data

Results flagged for a closer look

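In all, 155 genes and lists were examined over the 5 tumour CD29+CD24+ arrays. A lone array was marked where its gap to the next, divided by the whole range, exceeded 0.71. Chance marks about 1 in 20 groups chosen without regard to these values. That rate does not hold for genes picked for their spread over tumours, such as Csn1s2a. Nor does it hold for those picked for an extreme difference, such as Igfbp3, Rbm20, Slc5a5 and Syn2. Tumour A stood alone as lowest for Igfbp3 (12.03) and highest for Wap (9.04) and Csn1s2a (14.53). Tumour B was alone highest for Rbm20 (8.5), Slc5a5 (8.40) and Syn2 (3.61). Tumour C was alone highest for Col1a1 (4.73), Klk5 (4.35), Zeb1 (3.54) and Acta1 (4.47), and for the mean of the skeletal muscle markers (3.59). Tumour D was alone highest for Cdh5 (2.75) and Cd68 (5.30), and tumour E alone lowest for Cdh1 (13.71). Signals such as 2.75 lie at the low band.

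The tumour-minus-normal difference of CD29+CD24+ cells differed by test from that of CD29hiCD24+ cells for 5665 genes. The widest positive gaps were those of Igfbp3 (11.12), Krt17 (10.69), Krt14 (10.35), Glycam1 (10.25) and Mmp2 (9.97). The widest negative gaps were those of Aoc1 (-6.68), Tesc (-6.27), Qsox1 (-6.18), Akr1c13 (-6.16) and Steap1 (-5.92).

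Against Lin- cells the difference differed by test for 246 genes. The widest positive gaps were those of Igfbp3 (8.13), Krt14 (7.33), Antxr1 (7.31), Krt17 (7.30) and Snai2 (7.19), and the widest negative ones those of Esm1 (-3.54), Sdr42e1 (-2.49), AI429214 (-2.13), Trpm1 (-2.11) and Asb8 (-1.86).

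Probe sets with no gene name in the annotation were left out of the gene counts. Of 4946 such probe sets kept, 1086 differed between tumour and normal CD29+CD24+ arrays, 606 higher and 480 lower in tumours.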

How the results depend on the processing

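The 5864 calls between tumour and normal CD29+CD24+ arrays were 5352 to 6880 under 11 other settings, with 2016 to 2592 higher and 3230 to 4288 lower. With 1 tumour or pool left out, all 3 of its arrays, they were 4854 to 6016, with 1780 to 2249 higher and 2968 to 3767 lower. Within description numbers 82 to 95, where tumour E is alone in its group and the spread is that of the pools, 3883 genes were called, 1735 higher and 2148 lower. The test against CD29hiCD24+ cells gave 4206 to 5637 calls with 1 tumour or pool left out and 3730 within numbers 82 to 95. The test against Lin- cells gave 184 to 297 calls with 1 tumour or pool left out and 161 without tumours A, C and E, a setting chosen after seeing the data. With the replicate block, the letter as a random block, the main comparison had 5918 calls, 5743 of them shared, and the test against Lin- cells 444. Amy1 turned to -3.58 without tumours C and E and to -3.55 without A, C and E, and Fabp4, 2.53 and not called over all arrays, to -2.31 within numbers 82 to 95, where the single tumour is E. With Gapdh in place of actin, the 3' minus 5' difference was -0.24. The share of calls that were higher ran from 34.8% to 44.7%. The causes of these changes were not tested. Some settings also hold fewer arrays. Of 72 list counts, 1 for each direction of each list, 40 moved by over 1.5 times under at least 1 setting, 30 of them counts of 2 or fewer. As the mean of their probe sets, called genes with smaller values were Antxr1 (4.51), Apcdd1 (4.04), Dsc3 (5.42), Fbln2 (3.42), Fzd1 (2.23), Fzd2 (2.22), Mycn (1.53), Nkd2 (4.81), Sfrp1 (1.13), Top2a (2.84), Lama3 (3.92) and Dcn (2.06). Within numbers 82 to 95 Folr2 was not called (-6.39, adjusted p = 0.0538).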

Other observations

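Over all genes 27.1% fell and 16.4% rose. Of 14 antigen presentation genes tested 5 fell and 0 rose, with a median difference of -0.19. The 5 came to 2 without pool F, without pool H or with actin as a covariate, to 3 without tumours C and E, and to 8 with the runs of description numbers as a block. Tap2, a subunit of the peptide transporter, read 8.21, 7.71, 6.98, 5.93 and 5.96 in tumours A to E and 10.32, 9.53 and 10.09 in pools F to H (-3.03 ± 0.58, limma adjusted p = 0.000226), with every tumour below every pool. B2m, the light chain of class I molecules, read 13.46 to 14.77 in tumours and 13.92 to 14.20 in pools and did not pass the test (-0.01 ± 0.39). H2-Ab1, a class II gene, read 3.93 to 4.69 in tumours and 3.02 to 3.27 in pools, with every tumour above every pool. It was not called (1.18 ± 0.79, limma adjusted p = 0.256), but was with the 8 arrays alone (limma adjusted p = 0.00245). Cd74, also of the class II genes, did not pass (0.13 ± 0.99). Of 15 interferon response genes 1 rose and 0 fell, with a median of 0.26. Without tumour A 4 fell, and with array weights 4 rose and 1 fell. The gene that rose over all arrays was Irf7, an interferon regulatory factor (2.10 ± 0.54). It did not pass with the runs of description numbers as a block (1.14, limma adjusted p = 0.108). Within numbers 82 to 95 its difference was 1.34. Oas1a, an oligoadenylate synthetase, read 9.67, 8.88, 7.88, 7.06 and 6.68 in tumours A to E and 6.70, 6.17 and 6.29 in pools. It did not pass (1.65 ± 0.86), though it did with array weights (1.8, limma adjusted p = 0.0318).

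Of 20 immediate early and stress genes 8 rose and 0 fell, with a median of 0.18, and without tumour A 2 fell. Nr4a1, a nuclear receptor induced by many stimuli, rose by 3.33 ± 0.38, Egr2, a zinc finger factor, by 2.65 ± 0.45 and Fosl1, an AP-1 subunit, by 2.56 ± 0.30. The groups did not overlap for these genes. Fos, another AP-1 subunit, read 14.46 to 15.05 in tumours and 14.98 to 15.13 in pools (-0.27 ± 0.12) and did not pass, though it did without tumour A (-0.33, limma adjusted p = 0.0240). Among markers of other cells, Tfrc, the transferrin receptor, rose by 2.40 ± 0.32 (1.37 as the mean of its probe sets) and Mbp, a myelin protein, fell by 1.40 (± 0.35), a call lost with the mean of its probe sets (-0.65, adjusted p = 0.113).

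Of 17 luminal defence genes 2 rose and 5 fell, with a median of 0.05, against 16.4% higher and 27.1% lower over all genes. The 2 came to 1 without tumour B, pool F or pool G, and the 5 to 3 without tumours C and E. Slpi, a secreted protease inhibitor, read 11.93, 13.01, 13.51, 12.06 and 12.74 in tumours A to E and 6.66, 6.36 and 5.59 in pools F to H (6.44 ± 0.45, limma adjusted p = 2.66e-10). Clu, the chaperone clusterin, fell by 2.55 (± 0.54), and Reg3g, an antibacterial lectin, by 4.66 (± 0.39), reading 2.40 to 3.95 in tumours and 7.16 to 7.90 in pools. Of 17 milk and secretory genes 1 rose and 6 fell, the 6 coming to 3 without tumours C and E. Xdh, xanthine dehydrogenase, rose by 2.31 ± 0.38 and Folr1, a folate receptor, fell by 4.63 (± 0.34). The erythroid markers had 1 of 3 higher and 0 lower, the adipocyte markers 0 of 5 higher and 1 lower, the skeletal muscle markers 0 of 6 higher and 1 lower, and the Schwann and glial markers 1 of 5 higher and 1 lower.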
